A study of Mus musculus with 15 samples.

Results

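The genes described here are 7 immunometabolic enzymes, *Acod1*, *Nos2*, *Arg1*, *Ass1*, *Gch1*, *Ido1* and *Ch25h*, measured in Mouse Embryonic Fibroblasts (MEFs) under 5 culture conditions. They were found as the array features whose identifier is a RefSeq transcript of the listed gene, which gave 7 genes, each with 1 feature, among 56605 distinct features on the array. Of the 7 genes, 5 passed the filter on dim signals and are among the 29333 features tested, whereas *Arg1* and *Ido1* did not. The list was chosen by readouts of these arrays, among them the signal of *Acod1* with TNFα relative to control, so the levels of the 7 genes are given as a description with no test. Calls of the members are counted without being read as a result, and tests are given for 67 of 84 other genes of the same pathways and for marker genes.

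The cells were Balb/c 3T3 clone A31, an established fibroblast line grown from 1 clone, and total RNA was hybridized to one-color Agilent arrays. There were 5 groups of 3 arrays. One group was left untreated as control, and the others received TNFα at 10 ng/ml, TGFß1 at 5 ng/ml, IL-1β at 1 ng/ml, or IL-6 at 20 ng/ml given together with its soluble receptor sIL-6Rα at 25 ng/ml. The labels give a culture of 24 or 72 h, which was 24 h for the TNFα and TGFß1 arrays, and the time of the IL-1β and IL-6 groups was not stated. Each array is named here by its condition and its label number, from 1 to 15. The arrays of TNFα, TGFß1 and controls came from 3 independent experiments, but the labels do not say which arrays share one, and no source used here states it for IL-1β and IL-6, so p-values measure the spread between these arrays.

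These enzymes turn common metabolites into products that act in immunity. ACOD1 makes itaconate from cis-aconitate of the TCA cycle, the inducible nitric oxide synthase NOS2 makes nitric oxide and citrulline from arginine, arginase 1 (ARG1) splits the same arginine into ornithine and urea, and argininosuccinate synthase (ASS1) starts the return of citrulline to arginine. GTP cyclohydrolase 1 (GCH1) is the first and rate-limiting enzyme of tetrahydrobiopterin synthesis, the cofactor that nitric oxide synthases need. IDO1 opens the kynurenine pathway of tryptophan breakdown, and cholesterol 25-hydroxylase (CH25H) makes the oxysterol 25-hydroxycholesterol. They are best known from macrophages and dendritic cells exposed to bacterial products or interferons, and fibroblasts are known to induce several of them with inflammatory cytokines.

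A promoter was held in the RefSeq table used here for 4 of the 7 genes, all of which were above background on at least some arrays. The 250 bases before each start are shown for every member with an entry in that table. These 4 genes also had the 4 largest differences between TNFα and control among the 5 tested, which was not how they were picked. The bases are given 5′ to 3′ on the gene's strand (build GRCm38.p6), with capitals for matches to any of 7 motifs searched on both strands. The windows are chr14:103046762-103047011 on the plus strand for *Acod1*, chr2:31470020-31470269 on the plus strand for *Ass1*, chr14:47189414-47189663 on the minus strand for *Gch1* and chr19:34475149-34475398 on the minus strand for *Ch25h*.
Acod1: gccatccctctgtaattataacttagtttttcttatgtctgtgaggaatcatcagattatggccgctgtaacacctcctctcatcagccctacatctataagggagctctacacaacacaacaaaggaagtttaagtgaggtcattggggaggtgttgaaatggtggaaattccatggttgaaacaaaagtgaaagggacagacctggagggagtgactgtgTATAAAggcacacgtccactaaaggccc
Ass1: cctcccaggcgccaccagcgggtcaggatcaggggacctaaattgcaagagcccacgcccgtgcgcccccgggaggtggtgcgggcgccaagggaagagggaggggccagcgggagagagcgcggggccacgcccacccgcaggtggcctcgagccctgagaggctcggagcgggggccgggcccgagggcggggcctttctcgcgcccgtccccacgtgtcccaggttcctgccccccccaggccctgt
Gch1: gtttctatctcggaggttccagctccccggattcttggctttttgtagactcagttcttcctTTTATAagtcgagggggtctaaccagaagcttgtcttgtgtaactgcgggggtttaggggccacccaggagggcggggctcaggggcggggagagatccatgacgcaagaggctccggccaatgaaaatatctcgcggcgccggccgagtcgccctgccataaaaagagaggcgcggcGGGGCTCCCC
Ch25h: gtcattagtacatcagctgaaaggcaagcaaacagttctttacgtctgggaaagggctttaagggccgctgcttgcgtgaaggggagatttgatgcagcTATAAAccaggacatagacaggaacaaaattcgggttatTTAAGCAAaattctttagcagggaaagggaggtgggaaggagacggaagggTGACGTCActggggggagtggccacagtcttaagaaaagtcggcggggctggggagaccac

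The 4 promoters differed in base composition and in the motifs they held. The share of G and C was 44.4% in *Acod1*, 50.4% in *Ch25h*, 59.2% in *Gch1* and 75.6% in *Ass1*, beside a median of 52.4% over 32851 promoters of the table, and CG pairs numbered 2, 8, 17 and 23 in the same order. *Acod1* held 1 match, a TATAAA from base -28 to -23 counted from the start, a motif found in 12.4% of all promoters. The *Ch25h* window held TATAAA from -151 to -146, the C/EBP motif TTNNGCAA (9.56% of promoters) from -112 to -105 and the cyclic AMP response element TGACGTCA (1.55% of promoters) from -61 to -54. In *Gch1* the last 10 bases, -10 to -1, matched the NF-κB consensus on both strands, where 7.25% of promoters held a match on either strand. TATAAA was present in *Gch1* on the opposite strand from -188 to -183. *Ass1* held none of the 7 motifs. The other motifs, AP-1 (TGANTCA, 6.75% of promoters), the STAT motif GAS (TTCNNNGAA, 7.02%) and the interferon-stimulated response element ISRE (TTTCNNTTTC, 2.98%), had no match in the 4 windows. A match is a description of these letters and not a binding site.

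Levels are log2 processed signals minus the 75th percentile of their array, so that 0 is the 75th percentile and 1 unit is a factor of 2 in signal. This percentile lay between 325 and 445 units of signal, and 48.3% to 54.8% of features were well above background on an array, a mark set by the scanner software. The arrays lay on 2 slides, and slide 1 held control 1 and 11, TNFα 14, TGFß1 7, IL-1β 5 and 10 and IL-6 3 and 8. In the comparison with control, a feature passed when its q-value from limma was under 0.05 and its absolute fold-change at least 1.5. Among all features tested, 4.09% passed as higher and 5.96% as lower with TNFα, 7.51% and 10.4% with TGFß1, 0.228% as higher with IL-1β and 0.232% in either direction, and 0.058% in either direction with IL-6. In bulk RNA, fewer cells with a transcript and less transcript per cell cannot be told apart.

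The label of the cells was checked against marker genes. All 10 fibroblast markers, such as *Col1a1*, *Pdgfra* and *Thy1*, were well above background on all 15 arrays, and their summed linear signal relative to the 75th percentile was 1910 to 2270 in controls, 1260 to 1570 with TNFα and 1680 to 2380 in the other groups. Of 12 macrophage and myeloid markers, *Ptprc*, *Adgre1*, *Fcgr1*, *Lyz2*, *Tyrobp* and *Laptm5* were well above background on no array, and their log2 levels never exceeded -4.35. *Csf1r*, *Cd68*, *Itgam* and *Cd14* were above background on all 15 arrays. The summed signal of the 12 markers ranged from 10.8 to 22.4 in controls, 13.1 to 24.1 with TNFα and 12.7 to 21.6 with TGFß1. It was 11.8 to 24.9 with IL-1β and 11.4 to 23.9 with IL-6. *Itgam*, at a log2 level of 3.16 to 4.48, made up most of this sum, so the sum says little of the other markers. Of the 5 myeloid markers tested, *Mrc1*, the mannose receptor, rose by 3.59 (log2, q = 1.70e-04) and *Cd14*, a co-receptor for lipopolysaccharide, by 0.79 (q = 0.00301) with TNFα, and *Mrc1* fell by 1.26 (q = 0.0497) with TGFß1, where no array and 1 control measured it. Of the fibroblast markers, *Col1a1*, *Col1a2* and *Col3a1* fell with TNFα, the last by 2.17 (q = 0.00651), and with TGFß1 3 rose and 2 fell, among them *Pdgfra* by 1.98 (q = 1.05e-04). T and NK cell, endothelial and epithelial markers gave 4 of 6, 4 of 5 and 1 of 5 genes that were well above background on no array. The epithelial sum was 0.229 to 0.604 with TGFß1 and 0.0806 to 0.201 in controls, and *Krt8*, a keratin, rose by 2.19 (q = 0.0176). *Krt8* was well above background on 4 of 15 arrays and passed the filter on dim signals through the TGFß1 arrays alone, so this size rests on controls mostly at background. Whether other cells or a change in these fibroblast genes had a part in the levels of the enzymes was not tested.

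**Figure D1:**
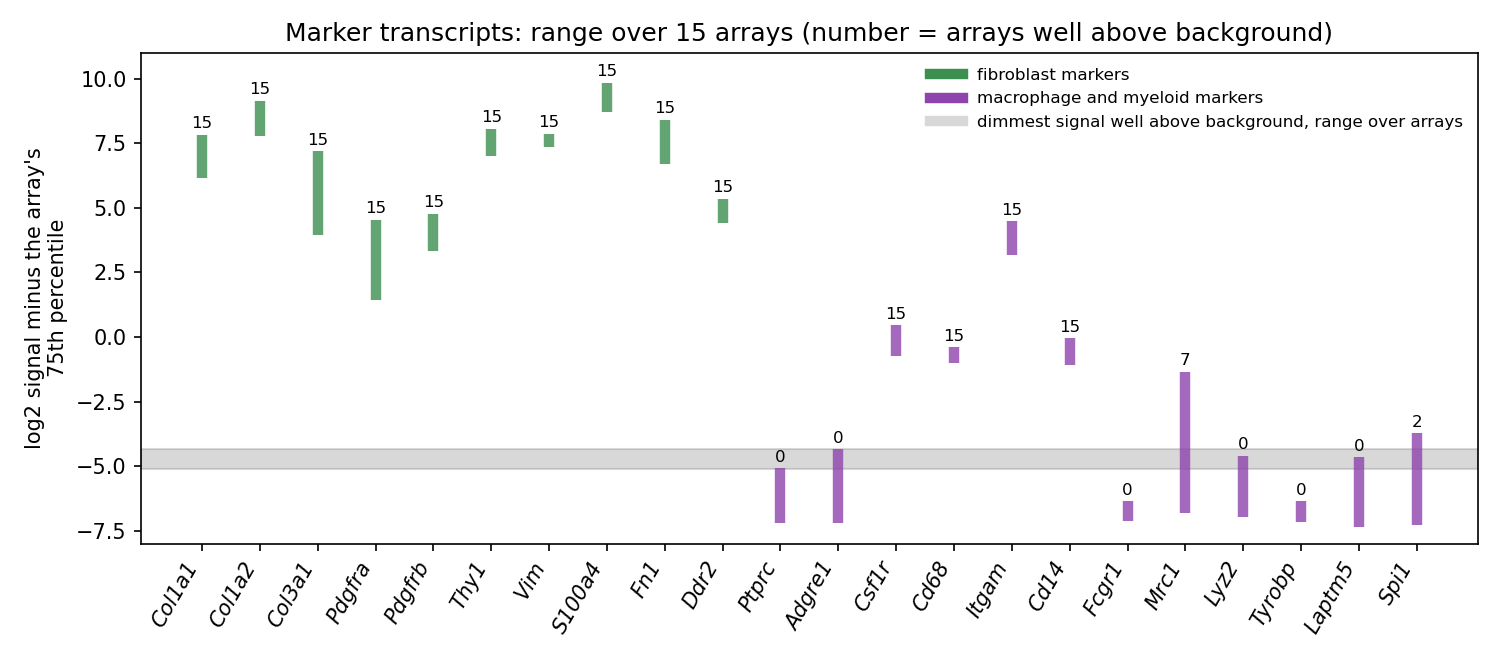
Range of the log2 level (signal minus the array's 75th percentile) of each fibroblast and macrophage or myeloid marker over 15 arrays, with the number of arrays on which it was well above background above each bar, and a grey band from -5.11 to -4.35 for the dimmest signal that was well above background on an array. All 10 fibroblast markers lie above the band, whereas 6 of the 12 macrophage and myeloid markers were well above background on no array.

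*Acod1*, which makes itaconate, was at background in control MEFs and well above it with TNFα. Its log2 level was -7.43, -7.31 and -6.65 on control arrays 1, 6 and 11, none of them well above background. With TNFα it was -1.36, -0.37 and -0.82 on arrays 4, 9 and 14. Every TNFα array thus lay far above every array of the other groups, of which the highest was -3.76. With TGFß1 the levels were -5.63, -5.87 and -7.08 and with IL-6 they were -7.01, -6.86 and -6.91, again none well above background. With IL-1β they were -7.24 and -6.54 on arrays 5 and 10, not well above background, but -3.76 on array 15, which was. *Acod1* was therefore above background on 4 of 15 arrays, the 3 of TNFα and 1 of IL-1β.

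No control array measured *Acod1*, so each control was taken at the dimmest signal that was well above background on its array. Its TNFα level was then 15.6-fold (log2 3.97) higher than in controls on the processed signals. The measured means were -0.85 ± 0.49 (SD, n = 3) with TNFα and -7.13 ± 0.42 in controls, a log2 difference of 6.28 (SE 0.69), and it was 6.22 within slide 1 and 6.45 within slide 2. When the signals were corrected with normexp instead, the difference was 2.32, smaller than that 3.97, so the size depends on the background correction. With IL-1β the difference was 1.28 (SE 0.69), and it was 0.15 within slide 1, 3.55 within slide 2 and 0.24 without IL-1β 15. IL-1β 15 is the IL-1β array that lay alone on slide 2, so array and slide cannot be told apart within that group, whereas in the other 4 groups the difference of slide 2 from slide 1 was -0.49 to 0.02.

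**Figure D2:**
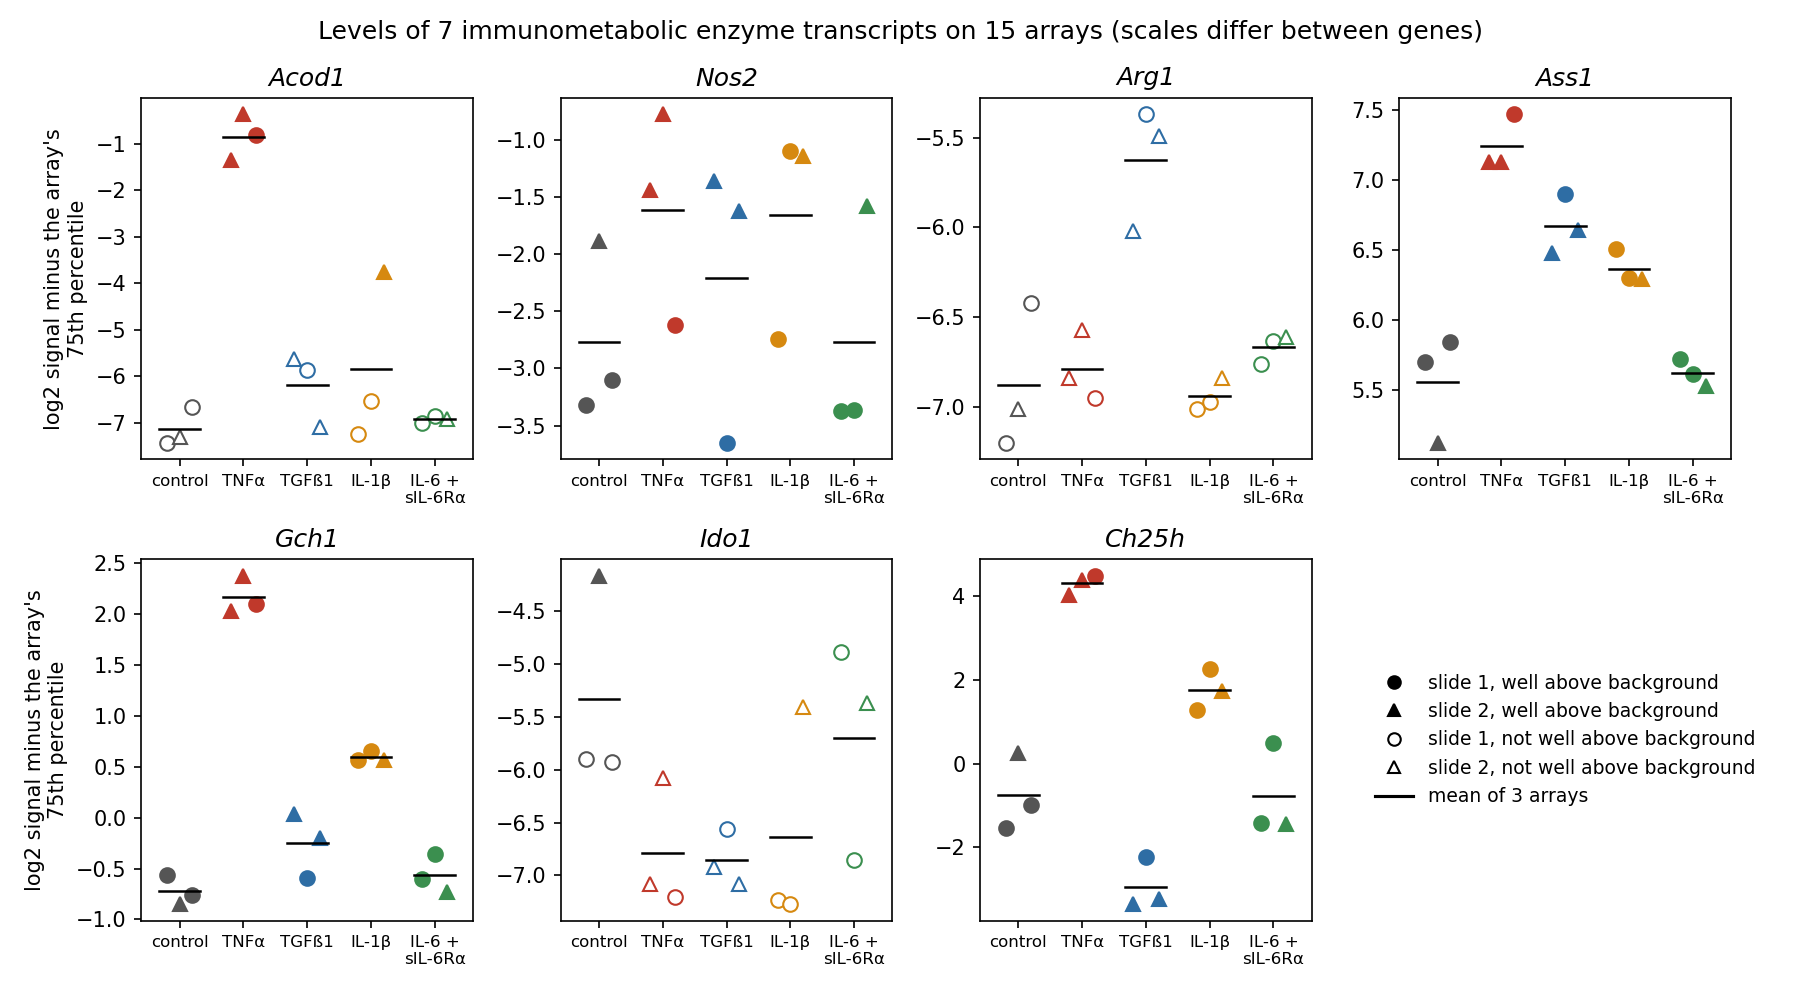
Log2 level (signal minus the array's 75th percentile) of the 7 enzymes on each of the 15 arrays by condition, with circles for slide 1, triangles for slide 2, open symbols for arrays not well above background and a line at the mean of 3 arrays; the scale differs between genes. The TNFα arrays lie above all others for *Acod1*, *Ass1*, *Gch1* and *Ch25h*, and the mean of *Nos2* is higher on slide 2 in every condition.

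Nitric oxide and arginine enzymes did not share 1 pattern. *Nos2*, the inducible nitric oxide synthase, was well above background on all 15 arrays, with control levels of -3.32, -1.89 and -3.10. With TNFα its levels were -1.44, -0.78 and -2.62, and with IL-1β -2.74, -1.10 and -1.14. With TGFß1 they were -1.36, -3.65 and -1.62, and with IL-6 -3.37, -3.36 and -1.58. The ranges of all neighbouring groups overlapped. Its mean was higher on slide 2 than on slide 1 in 5 of 5 groups, by 0.78 to 2.16 (median 1.51), which was as large as or larger than most of its differences from control. The log2 difference from control with TNFα was 1.16 (SE 0.74) over all arrays and 0.65 (SE 0.38) with the slide in the model, and within slides it was 0.59 and 0.78. With IL-1β it was 1.11 (SE 0.74, and 0.37 with the slide), and 1.29 and 0.75 within slides. Within the runs of label numbers 1 to 5, 6 to 10 and 11 to 15, each of which holds 1 array per condition, its difference was 1.88, 1.11 and 0.48 with TNFα and 0.58, 0.79 and 1.96 with IL-1β, whereas with TGFß1 and IL-6 both signs occurred.

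*Arg1*, the arginase that competes with NOS2 for arginine, was well above background on none of the 15 arrays, and its levels lay between -7.20 and -5.37. No difference between groups is given for it, because both sides of any comparison were at background. *Ass1*, which regenerates arginine from citrulline, was well above background on all 15 arrays, with control levels of 5.70, 5.12 and 5.84. With TNFα its levels were 7.13, 7.13 and 7.47, above every other array. With TGFß1 they were 6.48, 6.90 and 6.64 and with IL-1β 6.51, 6.30 and 6.29. These 6 arrays all lay between the highest control and the lowest TNFα array. With IL-6 the levels were 5.72, 5.61 and 5.53, within the range of the controls. *Ass1* differed from control by 1.69 (3.23-fold) with TNFα, 1.12 (2.17-fold) with TGFß1, 0.81 (1.76-fold) with IL-1β and 0.07 with IL-6, each with an SE of 0.18, or 0.12 with the slide in the model. The order of means was TNFα, TGFß1, IL-1β, IL-6 and control, and the ranges overlapped between TGFß1 and IL-1β and between IL-6 and control. The mean of *Ass1* on slide 2 minus that on slide 1 was below 0 in 5 of 5 groups, from -0.65 to -0.11.

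*Gch1*, which opens tetrahydrobiopterin synthesis, had control levels of -0.56, -0.85 and -0.76. With TNFα they were 2.03, 2.38 and 2.10, and with IL-1β 0.57, 0.66 and 0.57. Both groups stood clear of the controls and of each other. With TGFß1 the levels were 0.04, -0.59 and -0.20, and with IL-6 -0.60, -0.36 and -0.73, ranges that overlapped with each other and, for both, with the controls. The log2 difference from control was 2.90 (7.45-fold) with TNFα, 1.33 (2.51-fold) with IL-1β, 0.48 with TGFß1 and 0.16 with IL-6, with an SE of 0.17. Within slides it was 2.76 and 3.06 with TNFα and 1.28 and 1.42 with IL-1β, while with TGFß1 it was 0.07 on slide 1 and 0.77 on slide 2. *Gch1* had the narrowest spread of the 5 tested enzymes with IL-1β, an SD of 0.06 over the 3 arrays.

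*Ch25h*, the cholesterol 25-hydroxylase, had groups of arrays that lay wholly above and wholly below the controls. The control levels were -1.53, 0.24 and -1.0. With TNFα they were 4.03, 4.39 and 4.49 and with IL-1β 1.29, 2.27 and 1.73. All 6 arrays lay above the controls, and all TNFα arrays above all IL-1β arrays. With TGFß1 the levels were -3.36, -2.24 and -3.24, below every control, and with IL-6 they were -1.42, 0.50 and -1.44. *Ch25h* was thus 33.5-fold higher than in controls with TNFα (log2 5.06, SE 0.55) and 5.74-fold higher with IL-1β (2.52, SE 0.55), and differed by -2.19 with TGFß1 (-1.40 with normexp correction) and -0.02 with IL-6.

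The spread of *Ch25h* followed the runs of label numbers. In the run of 6 to 10 the controls, TGFß1, IL-1β and IL-6 each had their highest array. Taken within each run, the difference from control was 5.56, 4.15 and 5.48 with TNFα, 2.82, 2.02 and 2.73 with IL-1β, -1.83, -2.49 and -2.25 with TGFß1 and 0.11, 0.26 and -0.44 with IL-6. The direction was the same in all 3 runs for TNFα, IL-1β and TGFß1, and the SE for IL-1β fell from 0.55 to 0.31 when slide and run were both in the model. Within slides, the TGFß1 difference was -0.98 on slide 1, with 1 TGFß1 array, and -3.55 on slide 2, with 1 control.

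*Ido1*, which opens the kynurenine pathway, was well above background on 1 of 15 arrays, control 6, at -4.17. Its other 14 levels reached down to -7.27, and the group means of -5.33 in controls and -6.85 to -5.71 in the treated groups lay near background, so that no fold is given. No TNFα array measured *Ido1*.

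**Figure D3:**
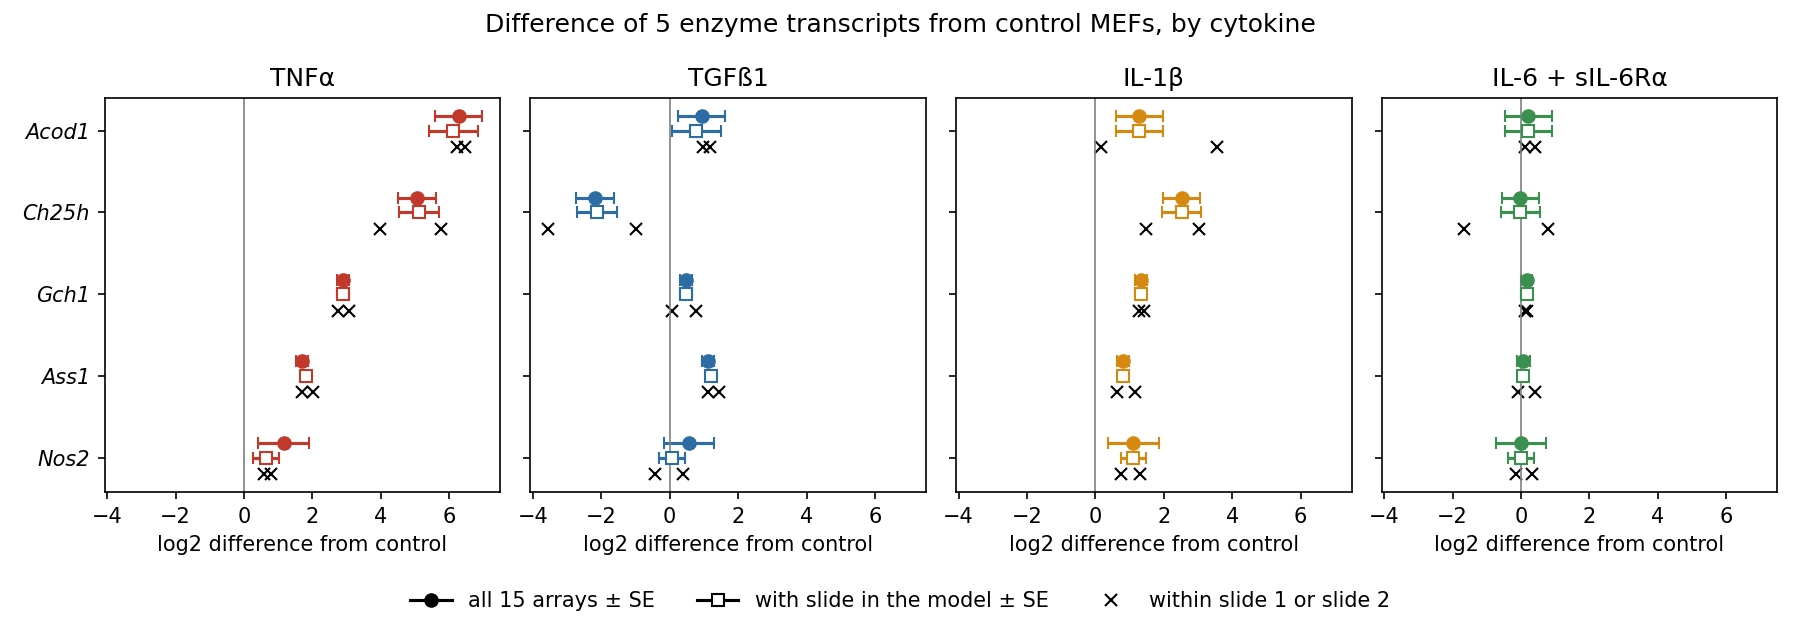
Log2 difference from control of the 5 tested enzymes for each cytokine, as the estimate from all 15 arrays (filled circle, ± SE), with the slide in the model (open square, ± SE) and within each slide (crosses). With TNFα all 5 estimates lie above 0, from 1.16 for *Nos2* to 6.28 for *Acod1*, *Ch25h* is the enzyme that lies clearly below 0 with TGFß1, and the IL-1β crosses of *Acod1* stand at 0.15 and 3.55.

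Counted by the same threshold, *Acod1*, *Ass1*, *Gch1* and *Ch25h* were higher with TNFα, 4 of the 5 tested enzymes, where 4.09% of all features were. *Acod1* passed the filter on dim signals through the TNFα arrays alone. With only features well above background on all 15 arrays tested, 3 enzymes were higher with TNFα. With TGFß1 *Ass1* was higher and *Ch25h* lower, against 7.51% and 10.4% of features, and *Ch25h* missed the threshold without control 6 (-1.69) or TGFß1 2 (-1.98). With IL-1β *Gch1* was higher, against 0.228%, and with slide and run in the model *Ass1* and *Ch25h* were as well, giving 3 of 5. With IL-6 limma called 0 of 5, with 0 at an unadjusted p under 0.05, where 0.058% of all features were called. The median log2 difference of the 5 enzymes was 2.90, 0.56, 1.28 and 0.07 with TNFα, TGFß1, IL-1β and IL-6, beside medians of 0.04, 0.07, 0 and 0 over all features tested. The IL-1β median is the difference of *Acod1*, which was at background on all controls and on 2 of 3 IL-1β arrays. Since the genes were listed with these results known, nothing is read from these counts. The 4 cytokines were compared with the same 3 controls.

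The pathways around the enzymes were read from 84 genes taken from textbook biochemistry, in lists that were made with earlier results of these data known. Of the 67 tested, 8 rose and 7 fell with TNFα and 8 rose and 10 fell with TGFß1, with medians of -0.03 and 0.05, while 4.09% and 5.96% (TNFα) and 7.51% and 10.4% (TGFß1) of all features did. Among the 8 that rose with TNFα, *Slc7a2* and *Ifnb1* passed the filter on dim signals through the TNFα arrays alone. With IL-1β and IL-6 limma called 0 of 67 partners, with 4 and 7 at an unadjusted p under 0.05. With slide and run in the model, 14 rose and 8 fell with TNFα, 10 rose and 11 fell with TGFß1, and 1 passed each with IL-1β and IL-6. When only features well above background on all 15 arrays were tested, 12 partners passed with TNFα, 5 of them higher. With TGFß1 16 then passed, 8 of them higher.

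Around *Acod1*, the TCA cycle and itaconate-breakdown genes moved little. All 14 were tested, and with TNFα 0 rose and 2 fell, their changes lying between -0.77 and 0.25. The 2 were *Slc25a1*, the mitochondrial citrate carrier (-0.77, SE 0.14, q = 0.00291), and *Clybl*, the citramalyl-CoA lyase that breaks down an itaconate product (-0.77, SE 0.16, q = 0.00887). *Clybl* also fell with TGFß1, by 0.73 (q = 0.00693), although with normexp correction it was -0.57, under 1.5-fold. With TGFß1 *Idh3a*, a subunit of isocitrate dehydrogenase, rose by 1.05 (q = 2.63e-04).

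Among the arginine and polyamine genes, *Slc7a2*, a cationic amino acid transporter that imports arginine, had control levels of -6.0, -3.67 and -6.09, of which control 6 alone was above background. With TNFα they were -1.34, -1.37 and -2.43, all above background and above every array of the other groups, of which the highest was -3.49 with IL-1β. *Slc7a2* rose by 3.54 (SE 0.68, q = 0.005) from controls mostly at background, and it passed the filter on dim signals through the TNFα arrays alone. The rise was 4.33 without control 6 and 1.30 (q = 8.52e-04) with normexp correction. Its level with TNFα was also higher than with IL-1β (q = 0.0413) and with TGFß1 (q = 0.00172). In all, 2 of 14 tested genes rose with TNFα, *Slc7a2* and *Odc1*, the ornithine decarboxylase (0.74, q = 0.0472), and 1 fell, the endothelial synthase *Nos3* (-0.88, q = 0.0153). Both of the latter depended on single arrays, as *Odc1* was 0.47 to 0.85 (q = 0.0522 to 0.164) without control 1 or 6 or TNFα 4 or 14, and *Nos3* -0.84 to -0.73 (q = 0.0552 to 0.0648) without control 6 or 11 or TNFα 4 or 14. With normexp correction *Nos3* was -0.42 (q = 0.0665).

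With TGFß1, 5 of these 14 genes rose and 1 fell. *Ddah1*, which degrades the synthase inhibitor dimethylarginine, rose by 1.09 (q = 0.00813), the polyamine synthases *Srm* by 0.94 (q = 0.0326) and *Sms* by 0.89 (q = 0.0159), *Odc1* by 0.87 (q = 0.0134) and the antizyme inhibitor *Azin1* by 0.62 (q = 0.00728). The other features of *Srm* on the array missed the threshold, at 0.90 (q = 0.0664) and 0.87 (q = 0.0819). For *Sms*, another feature missed it, at 0.87 (q = 0.0527), and another passed, at 0.72 (q = 0.0304). *Srm* was 0.56 (q = 0.104) without control 6 and also missed the threshold without TGFß1 2, 7 or 12 (0.86 to 1.00), and *Sms* was 0.68 (q = 0.064) without control 6 and 0.84 (q = 0.0591) without TGFß1 2. *Azin1*, at 0.56 to 0.58 without control 6, TGFß1 2 or TGFß1 12 and 0.58 with slide and run in the model, was then under 1.5-fold. *Nos3* fell by 0.77 (q = 0.0187), which missed the threshold without control 6 or 11 or TGFß1 2 or 12 (-0.76 to -0.66) and with normexp correction (-0.35, q = 0.0903). With only TGFß1 and control arrays in the model, *Ddah1* (q = 0.0553), *Odc1* (q = 0.054) and *Srm* (q = 0.0901) missed it. With slide and run in the model *Srm* also passed as higher with TNFα, at 0.71 (q = 0.00181). *Odc1*, *Azin1* and *Nos3* were named after their values were seen.

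Around *Gch1*, 1 of 8 tested tetrahydrobiopterin genes changed. *Gchfr*, the feedback regulatory protein that binds and inhibits GCH1, had control levels of 1.13, 0.49 and 1.34 and TGFß1 levels of 3.71, 3.98 and 4.17. It rose by 2.96 with TGFß1 (7.80-fold, SE 0.27, q = 1.82e-05), with no overlap with any other group, and the difference of TNFα from TGFß1 was -3.09 (q = 8.99e-06). With TNFα its levels of 0.78, 0.38 and 1.43 overlapped with the controls, and 0 of the 8 genes passed, with changes from -0.31 to 0.42. *Gch1* and its regulator thus had their largest changes with different cytokines. With IL-6 *Gchfr* was -0.98 (q = 0.648), which passed as lower with slide and run in the model (q = 0.00411).

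In the kynurenine list, 9 of 15 genes were tested. *Ahr*, the aryl hydrocarbon receptor for which kynurenine is a ligand, had control levels of -3.00, -3.46 and -2.77 and TNFα levels of -0.33, -1.37 and -0.29. It rose by 2.41 with TNFα (5.32-fold, SE 0.30, q = 2.24e-04, and 1.48 with normexp correction) and by 1.13 with TGFß1 (q = 0.0165), the latter at 0.94 without control 6 (q = 0.0663) or TGFß1 12 (q = 0.0712). The TNFα level was higher than that with TGFß1 (q = 0.0107) and with IL-1β (q = 0.008). *Ido2*, the paralogue of *Ido1*, was low but measurable with TNFα, at -2.46, -3.54 and -1.76, whereas control 1 alone of the controls was above background, at -4.50. *Ido2* rose by 2.16 with TNFα (q = 0.00392), a size that rests on controls mostly at background and was 0.78 (q = 0.0128) with normexp correction. Its fall with TGFß1, -1.46 (q = 0.02), rested on signals at background, since no TGFß1 array measured it. It was -0.11 (q = 0.698) with normexp correction and missed the threshold without control 1 or 11 or TGFß1 7 (-1.33 to -1.25). *Kmo* and *Kynu*, the next enzymes of the pathway, did not pass the filter on dim signals.

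Of the 12 tested partners of 25-hydroxycholesterol, 3 fell with TNFα and 4 with TGFß1 in the fit without a block, where 5.96% and 10.4% of all features did. In that fit 0 were higher in either comparison. *Nr1h3*, the oxysterol receptor LXRα, had control levels of -1.54, -0.76 and -0.92, TNFα levels of -2.85, -2.56 and -2.35 and TGFß1 levels of -3.44, -2.99 and -2.74. It fell by 1.51 with TNFα (q = 0.00257) and by 1.98 with TGFß1 (q = 2.32e-04, and -1.13 with normexp correction), and both ranges lay below every control, IL-1β and IL-6 array. *Abca1*, a cholesterol exporter and known LXR target, fell by 2.55 with TGFß1 (SE 0.50, q = 0.00314, and -1.17 with normexp correction), while with TNFα it was -0.99 (q = 0.234), which passed as lower with slide and run in the model (q = 0.00161). *Insig1*, which holds back the sterol sensor SCAP, fell by 1.05 with TNFα (q = 0.00309), and this differed from TGFß1 (q = 0.00128), where it was 0.07. *Hsd3b7*, an enzyme of oxysterol breakdown, was -0.85 with TNFα (q = 0.0206) and -0.75 with TGFß1 (q = 0.022). Both calls of *Hsd3b7* depended on single arrays, since its TNFα change was -0.82 to -0.72 (q = 0.0631 to 0.0979) without control 6 or 11 or TNFα 4, and its TGFß1 change -0.73 to -0.65 (q = 0.0606 to 0.0848) without control 6 or 11 or TGFß1 2 or 12. *Insig2*, a relative of *Insig1* named after its value was seen, fell by 0.77 with TGFß1 (q = 0.00162). With slide and run in the model, 2 more genes passed as higher, *Soat1*, which esterifies cholesterol (0.71 with TNFα, q = 0.00102, and 0.79 with TGFß1, q = 3.23e-04), and the exporter *Abcg1* (0.84, q = 0.00381, and 0.73, q = 0.00527), both named after their values were seen. *Ch25h* and *Nr1h3* thus stood in opposite directions with TNFα and in the same direction with TGFß1.

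**Figure D4:**
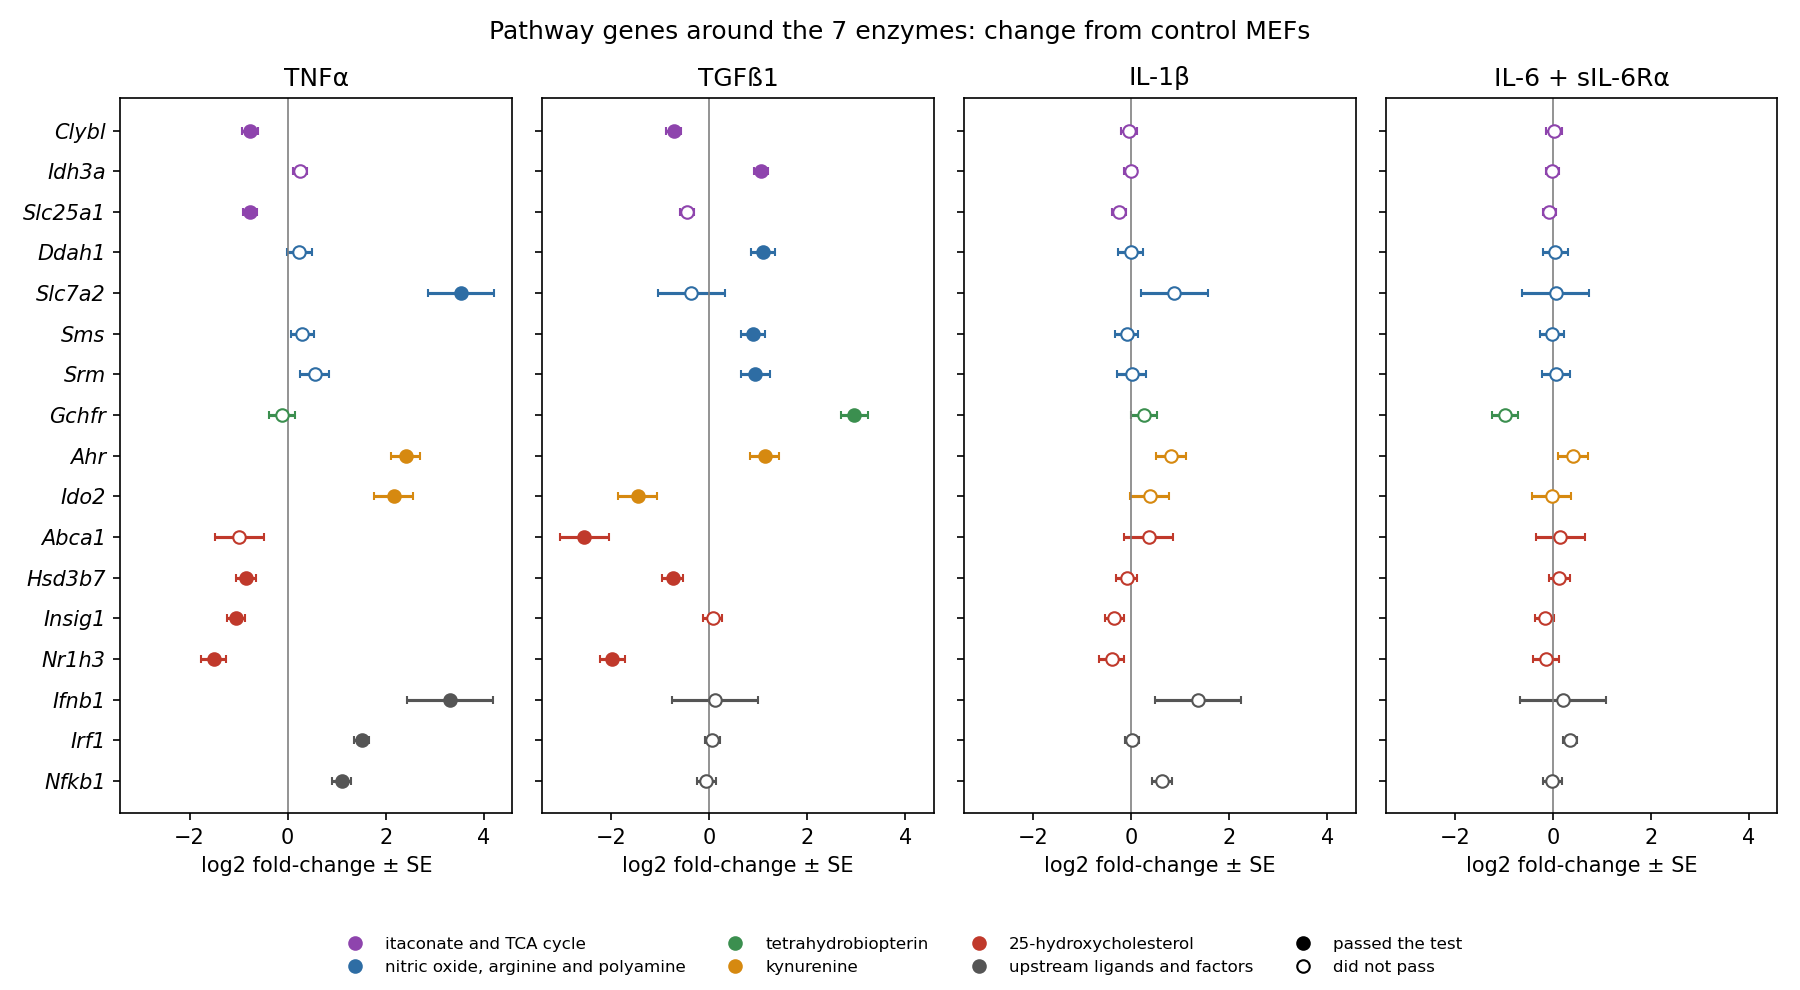
Log2 fold-change from control (± SE) of 17 named pathway genes for each cytokine, colored by pathway, with filled circles for genes that passed the test (q under 0.05 and at least 1.5-fold). *Slc7a2*, *Ifnb1*, *Ahr* and *Ido2* have the largest rises with TNFα, *Gchfr* the largest rise and *Abca1* and *Nr1h3* the largest falls with TGFß1, and none passed with IL-1β or IL-6.

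Ligands and transcription factors known to act on these enzymes gave 4 of 10 tested genes that rose with TNFα, where 4.09% of all features did. Among them, *Ifnb1* passed the filter on dim signals through the TNFα arrays alone. *Irf1*, an interferon-regulatory factor, was 4.13, 4.30 and 4.56 in controls and 5.79, 5.83 and 5.89 with TNFα, and rose by 1.51 (SE 0.15, q = 3.77e-05), an effect that was larger than with IL-1β (q = 9.41e-05) and with TGFß1 (q = 2.44e-05). *Nfkb1*, the NF-κB p105 subunit gene, rose by 1.10 (q = 0.00301) with TNFα and *Rel*, another subunit, by 0.88 (q = 9.14e-04). With IL-1β *Nfkb1* was 0.63 (q = 0.62), which passed with the slide in the model (q = 0.00835). *Stat3*, which carries IL-6 signals, fell by 1.01 (q = 0.0174) with TNFα, but this missed the threshold without control 11 or TNFα 4 or 9 (-1.0 to -0.88). With TGFß1, 3 of the 10 fell, among them *Stat3* by 0.82 (q = 0.028) and the inflammatory factor *Cebpb* by 0.75 (q = 5.09e-04). *Stat3* missed the threshold without control 1 or 11 or TGFß1 2 or 12 (-0.83 to -0.66). *Rel*, *Stat3* and *Cebpb* were named after their values were seen, and *Rel* was 0.34, under 1.5-fold, with normexp correction. *Ifng* and *Irf8* did not pass the filter on dim signals.

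*Ifnb1*, interferon beta, followed the arrays on which *Acod1* was measured. Its levels with TNFα were -4.19, -3.87 and -3.44, and IL-1β 15 had -2.76, the highest of all. The other 11 arrays were not well above background, from -7.45 to -6.68. *Ifnb1* passed the filter on dim signals through the TNFα arrays alone. It rose by 3.32 with TNFα (SE 0.88, q = 0.0268, and q = 0.0586 with no filter). The rise was 1.98-fold (log2 0.99) when each control is taken at the dimmest signal well above background on its array. Without any 1 of the 6 arrays compared the q-value rose to between 0.054 and 0.0805. With normexp correction the difference was 0.68 (q = 0.0645), smaller than that 0.99. In all, 5 features were well above background on the 3 TNFα arrays, IL-1β 15 and no other array, *Acod1*, *Ifnb1*, *Spib*, *D930048N14Rik* and 1 with no gene name, all but *Acod1* and *Ifnb1* being named after their values were seen. The same count was 4 for IL-1β 5 and 8 for IL-1β 10, and 26 features were above background on the 3 TNFα arrays alone.

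Among the enzymes, levels over the 15 arrays ran most alike for *Acod1* and *Gch1*, with a Pearson's r of 0.91, and for *Gch1* and *Ch25h* (0.85), and least for *Nos2* and *Ass1* (0.25). The points are the 3 arrays of each of 5 conditions, so r mostly describes the order of the conditions, and no p is given. Over 13487 genes, *Gch1* was most like *Ccl20* (0.973), *Mmp13* (0.971), *Sod2* (0.967), *Olfr1033* (0.966) and *Ttc39c* (0.958), and *Ch25h* most like *Mmp3* (0.986), *Lipa* (0.978), *Glrx* (0.976), *Vcam1* (0.974) and *Enpp2* (0.973). Among the genes most like *Ass1* were *Gm13212*, *Ripk2* (both 0.956), *Bid* (0.951) and *Tnfaip1* (0.949). For *Acod1* the closest were *Prg2* (0.944), *Cxcl9* (0.941), *Ppp1r14a*, *Psmb10* and *Ttc39c* (each 0.938). *Nos2* had its closest genes at lower r, *Lsamp* (0.908), *Proser3*, *Zfp663* (both 0.903), *Hccs* (0.894) and *Pou4f1* (0.890).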

How the data were processed

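Gene expression of control and cytokine-treated MEFs was measured on 15 one-color Agilent arrays. The authors extracted the spots with Agilent Feature Extraction 10.7.3.1 (version from the submitters' processing notes), and the deposited scanner files give the processed intensity of each spot, its median and local background intensity and quality marks. The deposited table of the whole series held the same intensity values (largest difference 0). Of 62976 spots per array, 59305 were no controls and formed 56605 distinct features, with spots of 1 feature averaged, of which 33767 were named through RefSeq. Saturation was seen on no array. Precision is limited by the number of arrays.

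The log2 processed signal minus the 75th percentile of its array was tested with limma 3.58.1 (R 4.3.3) on all 15 arrays with 5 groups and no block, two-sided, with Benjamini-Hochberg adjustment over 29333 features that were well above background on all 3 arrays of at least 1 group. The call needed q under 0.05, after the authors' methods, and an absolute fold-change of 1.5. A gene with several features was read from the brightest over the 15 arrays. The script was tested on simulated data. The 7 members and the lists were chosen with earlier results of these data known. Genes named were the members, at most 4 called genes per pathway list with the largest change, and the 5 most like each member, and others were named after their values were seen. Some genes that this rule named are not reported here. Groups came from the labels.

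Alternatives were quantile normalization, normexp (offset 50, on the median signal and the background, since the mean signal was not among the columns), no filter or a strict one, slide, slide and run, run, only the groups compared, the series table and leaving out each array. Label numbers 1 to 15 pair nothing by name, but form 3 runs of 5. With group and slide removed, deviations correlated over 0.1 for 30 of 30 array pairs that shared a run but not a group (r 0.114 to 0.671) and for 2 of 60 that shared neither. With the group alone removed these counts were 12 of 30 and 28 of 60, so the pairing shows once the slide is accounted for. On this basis the runs were taken to pair the arrays, but the main values remain those of the fit without a block. Values with slide and run as a block are given for some of the genes whose call they change. Promoters were read from a RefSeq table of GRCm38.p6, which was not the build of the array design, and no probe position is given.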

Additional observations from a re-analysis of the deposited data

How the results depend on the processing

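With IL-1β the 1 called enzyme became 2 with quantile normalization, 2 with the slide, 3 with slide and run as a replicate block, 2 with the run alone as a block and 0 with only the groups compared, and the 0 called partners became 1 with the slide and 1 with slide and run. With IL-6 the 0 partners became 1 with slide and run. Over all features, 2948 calls with TNFα became 4522 with slide and run, and 5250 with TGFß1 became 3472 with normexp. The 68 with IL-1β became 106 with the slide, 323 with slide and run, 157 with the run and 20 with only the groups compared, and the 17 with IL-6 became 37, 231, 61 and 0, and 9 with no filter. Without 1 array, features called ranged from 1847 to 2642 (TNFα), 3986 to 5384 (TGFß1), 39 to 55 (IL-1β) and 4 to 18 (IL-6). Enzymes called then ranged from 4 to 4, 1 to 3, 1 to 1 and 0 to 0, and partners from 11 to 15, 11 to 18, 0 to 0 and 0 to 0. With TGFß1, *Ch25h* was not called without control 6 or TGFß1 2, and *Gch1* was called (0.65) without TGFß1 7. With only the groups compared, 13 partners were called with TNFα and 13 with TGFß1, in place of 15 and 18, and among those lost with TNFα were *Nos3* (q = 0.0931) and *Odc1* (q = 0.155). With no filter on dim signals *Hsd3b7* (q = 0.0518 with TNFα and 0.0538 with TGFß1), *Ifnb1* (q = 0.0586) and *Odc1* (q = 0.11) with TNFα and *Srm* (q = 0.0728) and *Stat3* (q = 0.065) with TGFß1 were not called. *Azin1* with TGFß1 was 0.49, under 1.5-fold, with quantile normalization. The causes were not tested. The differences of *Acod1*, *Ido2*, *Ifnb1* and *Slc7a2* rest in part on arrays at background. *Arg1* and *Ido1* did not pass the filter on dim signals, so the main fit did not test them. With no filter, 3 enzymes were called with TGFß1, 2 of them higher, in place of 2.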
